A study of Mus musculus with 15 samples.

Results

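The genes of cellular zinc handling followed here were read in the gastrocnemius, a calf muscle, of aged female mice. They are the metallothionein genes Mt1 and Mt2, the transcription factor gene Mtf1 and the zinc exporter gene Slc30a1. They were taken by symbol, by a rule that uses their known roles and no threshold on their values, and are 4 of the 55450 genes counted and 4 of the 16920 genes tested. Poly(A) RNA was sequenced from 15 C57BL/6JN females older than 17 months. Mice with at most 1 positive marker of frailty formed the Low groups (robust in the sample labels) and mice with at least 2 formed the High groups (frail in the labels). Low Control (n = 4) and High Control (n = 3) mice stayed sedentary, and Low Run (n = 4) and High Run (n = 4) mice ran 2 bouts downhill on a treadmill at a 22 degree decline and 13 m/min, with the muscle taken 24 h after running. The labels name no transgene, frailty was assigned relative to the cohort rather than by a disease model, and each library came from 1 mouse.

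Metallothioneins are small cysteine-rich proteins of the cytosol that bind zinc and copper and buffer the free metal. Free zinc binds the zinc fingers of MTF-1, the product of Mtf1, which then binds short metal response elements in front of Mt1, Mt2 and Slc30a1 and raises their transcription. ZnT1, the product of Slc30a1, carries zinc out across the plasma membrane. Mt1 and Mt2 are also known to respond to glucocorticoids, to oxidative stress and to IL-6 signaling through STAT3, and in muscle they are known from catabolic states such as fasting and disuse.

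Totals ran from 19395125 to 30699216 counts per mouse, with a median of 25926420. Markers of skeletal muscle fibres were counted in every mouse (7 of 7 genes). On the first principal component of all tested genes, which held 27.9% of the variance, mice D9 (Low Control) and D62 (High Run) stood apart at -90.3 and -58.1, while the other 13 mice lay between -19.7 and 27.8. Both are also the highest mice for the metallothionein genes, so values without them are given beside the results that they move. These are bulk samples, in which a change in the share of a cell type and a change in RNA per cell cannot be told apart.

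Mt2 (ENSMUSG00000031762) lies on the plus strand at chr8:94172664-94173568 and Mt1 (ENSMUSG00000031765) on the same strand at chr8:94179082-94180327 of GRCm38 (mm10). The gap between them is 5513 bases and holds 0 annotated genes. Mtf1 (ENSMUSG00000028890) is at chr4:124802104-124849800 and Slc30a1 (ENSMUSG00000037434) at chr1:191906767-191913247. All 4 are protein-coding, and reads were counted over their exons. Mt2 overlaps Gm45774, Mtf1 overlaps 1110065P20Rik and Slc30a1 overlaps 1700034H15Rik, all on the opposite strand, and the study's methods give same-strand counting. Mtf1 also overlaps n-R5s192 on its own strand. Counts over a shared stretch are less certain. The longest stretch that the annotated transcripts of Mt1 and Mt2 share is 20 bases, and only uniquely aligned read pairs were counted.

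The 250 bases in front of each RefSeq start on GRCm38.p6 are shown for the 3 genes that MTF-1 is known to drive, because the metal response element is the sequence these genes are known to share. Capitals mark the 7-base core of that element, searched as TGCACNC and TGCGCNC on both strands. The windows are chr8:94178839-94179088 for Mt1, chr8:94172368-94172617 for Mt2 and chr1:191906531-191906780 for Slc30a1, all on the plus strand and written 5′ to 3′. The RefSeq starts differ by some bases from the gene starts given above.
Mt1: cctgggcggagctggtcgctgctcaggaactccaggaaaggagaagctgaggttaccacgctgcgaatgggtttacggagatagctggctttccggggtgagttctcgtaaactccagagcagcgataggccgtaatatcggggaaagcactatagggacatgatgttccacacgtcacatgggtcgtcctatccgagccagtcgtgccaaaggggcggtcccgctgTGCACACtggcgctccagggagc
Mt2: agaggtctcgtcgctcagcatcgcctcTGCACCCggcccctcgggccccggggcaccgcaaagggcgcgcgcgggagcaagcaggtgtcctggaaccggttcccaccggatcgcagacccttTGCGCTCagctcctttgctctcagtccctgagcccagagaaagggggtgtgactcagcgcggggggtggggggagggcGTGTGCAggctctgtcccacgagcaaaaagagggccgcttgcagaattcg
Slc30a1: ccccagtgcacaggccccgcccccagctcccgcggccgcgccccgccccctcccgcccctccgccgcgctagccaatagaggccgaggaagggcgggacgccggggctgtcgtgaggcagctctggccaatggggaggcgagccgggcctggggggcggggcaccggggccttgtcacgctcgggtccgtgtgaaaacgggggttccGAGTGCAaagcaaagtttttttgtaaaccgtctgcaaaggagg

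Counted over the full 300-base windows, which run on to 50 bases past the start, the Mt2 window held 4 cores, the Mt1 window 3, the Slc30a1 window 2 and the Mtf1 window 0. Of 32851 RefSeq windows of the same length, 25.7% held at least 1 core, 7.11% at least 2, 1.97% at least 3 and 0.517% at least 4. The 3 cores of Mt1 began at positions -23, 3 and 21 relative to the RefSeq start, and those of Mt2 at -223, -128, -50 and 5. The cores of Slc30a1 began at -43 and 31, both on the minus strand. These matches describe the letters of the windows and do not show binding. The positions and counts depend on the RefSeq starts, and where transcription begins in this muscle was not tested. A core placed past a RefSeq start may lie in front of the start used, and cores outside the windows were not counted.

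Mt1 differed far more between mice of 1 group than between groups. Levels are given as CPM, the count per 1e6 counts of the TMM-scaled library. In Low Control mice Mt1 stood at 42.9 CPM in D8, 209 in D9, 22.2 in D11 and 16.1 in D98. In Low Run mice it stood at 31.9 in D57, 15.6 in D61, 16.1 in D66 and 121 in D68. High Control mice had 49.4 CPM in D23, 38.6 in D25 and 25.7 in D67, and High Run mice had 21.4 in D49, 25.4 in D52, 55.7 in D53 and 215 in D62. A single mouse was far above its group in Low Control, Low Run and High Run, the 3 High Control mice lay close together, and every pair of groups overlapped.

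Mt2 followed the same mice. Its CPM values were 38.2 (D8), 198 (D9), 21.5 (D11) and 13.1 (D98) in Low Control, and 38.3 (D57), 13.1 (D61), 15.0 (D66) and 118 (D68) in Low Run. In High Control they were 49.7 (D23), 42.9 (D25) and 19.5 (D67), and in High Run 17.2 (D49), 25.5 (D52), 44.6 (D53) and 200 (D62). Mice D9, D62 and D68 were again the 3 highest of 15, and the groups overlapped throughout.

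**Figure D1:**
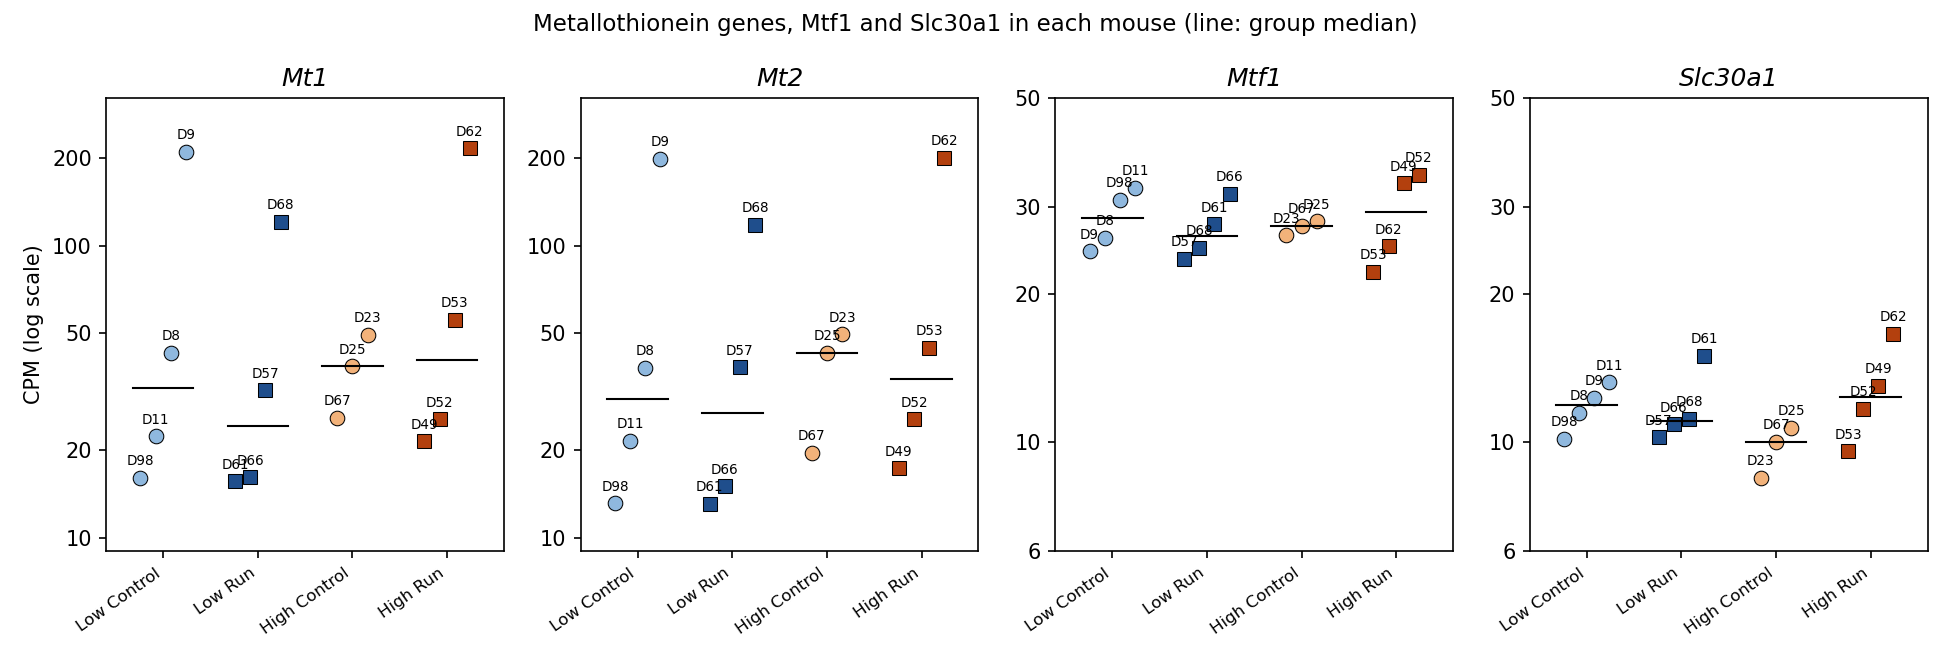
CPM on a log axis for Mt1, Mt2, Mtf1 and Slc30a1 in each of the 15 mice, labelled by mouse, with a line at each group median. For Mt1 and Mt2, D9 (Low Control), D68 (Low Run) and D62 (High Run) lie above all other mice, whereas Mtf1 keeps between 22.2 and 34.9 CPM and Slc30a1 between 8.46 and 16.6 CPM.

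Mtf1 was far steadier. Its CPM values were 26.0 (D8), 24.4 (D9), 32.8 (D11) and 31.1 (D98) in Low Control, and 23.6 (D57), 27.7 (D61), 31.9 (D66) and 24.8 (D68) in Low Run. In High Control they were 26.3 (D23), 28.1 (D25) and 27.5 (D67), and in High Run 33.5 (D49), 34.9 (D52), 22.2 (D53) and 25.0 (D62). The 3 mice with the highest Mt1 had between 24.4 and 25.0 CPM of Mtf1, toward the low end, and the groups overlapped.

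Slc30a1, the exporter, had CPM values of 11.5 (D8), 12.3 (D9), 13.2 (D11) and 10.2 (D98) in Low Control, and 10.2 (D57), 15.0 (D61), 10.9 (D66) and 11.1 (D68) in Low Run. In High Control they were 8.46 (D23), 10.7 (D25) and 10.0 (D67), and in High Run 13.0 (D49), 11.7 (D52), 9.57 (D53) and 16.6 (D62). The lowest of all mice was a High Control mouse and the highest was D62, but every pair of groups overlapped.

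By group means, Mt1 stood highest in High Run at 79.5 ± 91.9 CPM (SD, n = 4). Low Control followed with 72.5 ± 91.7 CPM (n = 4), ahead of 46.1 ± 50.4 for Low Run (n = 4) and 37.9 ± 11.9 for High Control (n = 3). Medians gave another order, with 40.5 in High Run, 38.6 in High Control, 32.5 in Low Control and 24.0 in Low Run. Mt2 had means of 71.7 ± 86.0 CPM in High Run, 67.8 ± 87.6 in Low Control, 46.0 ± 49.1 in Low Run and 37.4 ± 15.8 in High Control (same n). Mtf1 means were 28.9 ± 6.28 CPM in High Run, 28.6 ± 4.02 in Low Control, 27.3 ± 0.914 in High Control and 26.999 ± 3.70 in Low Run. Slc30a1 means were 12.7 ± 2.94 CPM in High Run, 11.8 ± 2.14 in Low Run, 11.8 ± 1.304 in Low Control and 9.71 ± 1.14 in High Control. No neighbours in these orders differed by more than their SDs, except that the step from Low Control to High Control in Slc30a1 exceeded either SD and did not pass the test below.

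Over all 15 mice Mt1 spanned 13.8-fold and Mt2 15.3-fold, against 1.57-fold for Mtf1 and 1.96-fold for Slc30a1. After removal of the group means, the SD of log2 CPM was 1.39 for Mt1 and 1.46 for Mt2, ranks 111 and 88 from the top among the 16920 genes tested. The median gene had an SD of 0.33. Among genes within 1 log2 unit of the same mean level, Mt1 ranked 4 of 4033 and Mt2 ranked 2 of 4178. Mtf1 (0.22) and Slc30a1 (0.24) were below the median gene. Counting error was small beside this spread, since the lowest Mt1 and Mt2 counts, 378 and 340, carry Poisson errors of 5.14% and 5.42%. Group membership took 4.58% of the variance of Mt1, 2.54% of that of Mt2, 3.42% of that of Mtf1 and 27.6% of that of Slc30a1, beside a median of 21.7% over all tested genes. These shares are not corrected for fitting 4 group means to 15 mice, so a gene without any group difference also has a share above 0.

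Levels between genes were compared per kilobase of annotated exon (RPKM). The median over the mice was 64.9 RPKM for Mt2, 25.6 for Mt1, 3.09 for Mtf1 and 2.12 for Slc30a1. The union of exons is 588 bases for Mt2 and 1246 for Mt1, whose CPM levels were nearly equal, so the difference between the pair on the RPKM scale rests on the annotated lengths. The count of Mt1 over that of Mt2 had a median of 1.07 and kept between 0.835 and 1.316 in the 15 mice.

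The first comparison asked whether the downhill run moved these genes in Low mice. Mt1 was lower by mean level in Low Run than in Low Control, with a log2 fold change of -0.66 (SE 0.87) that did not pass the test (edgeR quasi-likelihood F-test with Benjamini-Hochberg adjustment over all genes, FDR 0.729). Mt2 differed by -0.56 (SE 0.90, FDR 0.780), Mtf1 by -0.08 (SE 0.16, FDR 0.828) and Slc30a1 by 0.0027 (SE 0.18, FDR 0.995). None of the 4 members was called at an FDR of 0.1, nor was any of the 16920 genes (0%), while 2274 genes (13.4%) had an unadjusted p under 0.05, and the DESeq2 Wald test called 10 genes and voom 0. In an edgeR fit with no count filter, over 35419 genes, 86 genes were called in Low mice, 19 in High mice, 4 for the interaction, 0 between the controls, 6 between the runners and 81 for the averaged run effect, and no member was among them. Without D9, the difference in Mt1 became 0.76 and that in Mt2 0.91, and without D68 they became -1.79 and -1.63. The 95% interval of the Mt1 change ran from -2.51 to 1.20, which is from 0.176-fold to 2.29-fold.

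In High mice the corresponding differences were 1.07 for Mt1 (SE 0.96, FDR 0.958), 0.94 for Mt2 (SE 0.99, FDR 0.964), 0.08 for Mtf1 (SE 0.17, FDR 0.977) and 0.39 for Slc30a1 (SE 0.19, FDR 0.956), all on the log2 scale by the same edgeR test. Slc30a1 had the smallest unadjusted p of the members, 0.0601 in the edgeR fit over 15 mice, with a 95% interval from -0.02 to 0.79. No gene was called at an FDR of 0.1 (0%), 877 genes (5.18%) had an unadjusted p under 0.05, DESeq2 called 15 genes and voom 45. Mouse D62 carried the direction for both metallothioneins, since without it Mt1 differed by -0.16 and Mt2 by -0.37. For Slc30a1 the difference without D62 was 0.23.

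The Frailty × Run interaction, the difference between these responses, was 1.72 for Mt1 (SE 1.298, edgeR FDR 0.651), 1.502 for Mt2 (SE 1.34, FDR 0.690), 0.16 for Mtf1 (SE 0.24, FDR 0.814) and 0.39 for Slc30a1 (SE 0.26, FDR 0.628). It was called for 0 of 16920 genes (0%) by edgeR, with an unadjusted p under 0.05 in 1342 genes (7.93%). DESeq2, over 35372 genes, and voom also called 0. Left out in turn, mice moved the Mt1 interaction between 0.31 (without D9) and 2.85 (without D68), and without both D9 and D62 it was -0.92 for Mt1 and -1.28 for Mt2. The interaction estimate of both metallothioneins was thus positive with those mice and negative without them. The fit without D9 and D62 still held D68, the highest Low Run mouse for both genes, so its negative sign depends on which high mice were left out.

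Between frailty groups of sedentary mice, High Control minus Low Control was -0.94 for Mt1 (SE 0.96), -0.86 for Mt2 (SE 0.99), -0.07 for Mtf1 (SE 0.17) and -0.28 for Slc30a1 (SE 0.19) on the log2 scale, with edgeR FDRs from 0.706 to 0.927. Without D9, Mt1 differed by 0.48 and Mt2 by 0.62. After running, High Run minus Low Run was 0.79 for Mt1 (SE 0.87), 0.64 for Mt2 (SE 0.90), 0.10 for Mtf1 (SE 0.16) and 0.11 for Slc30a1 (SE 0.18), and each had an edgeR FDR of 0.999. Without D62 these became -0.44 for Mt1 and -0.66 for Mt2, and without D68 they were 1.91 and 1.70. Averaged over the frailty groups, the run effect was 0.21 for Mt1, 0.19 for Mt2, 0.00024 for Mtf1 and 0.20 for Slc30a1. Neither of the frailty comparisons nor the averaged one called a gene at an FDR of 0.1 (0% in each) in the edgeR fit. An unadjusted p under 0.05 was reached by 992 genes (5.86%) between the controls, 424 (2.51%) between the runners and 1461 (8.63%) for the averaged run effect, for which DESeq2 called 106 genes and voom 0. In both frailty comparisons DESeq2 and voom called 0 genes.

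**Figure D2:**
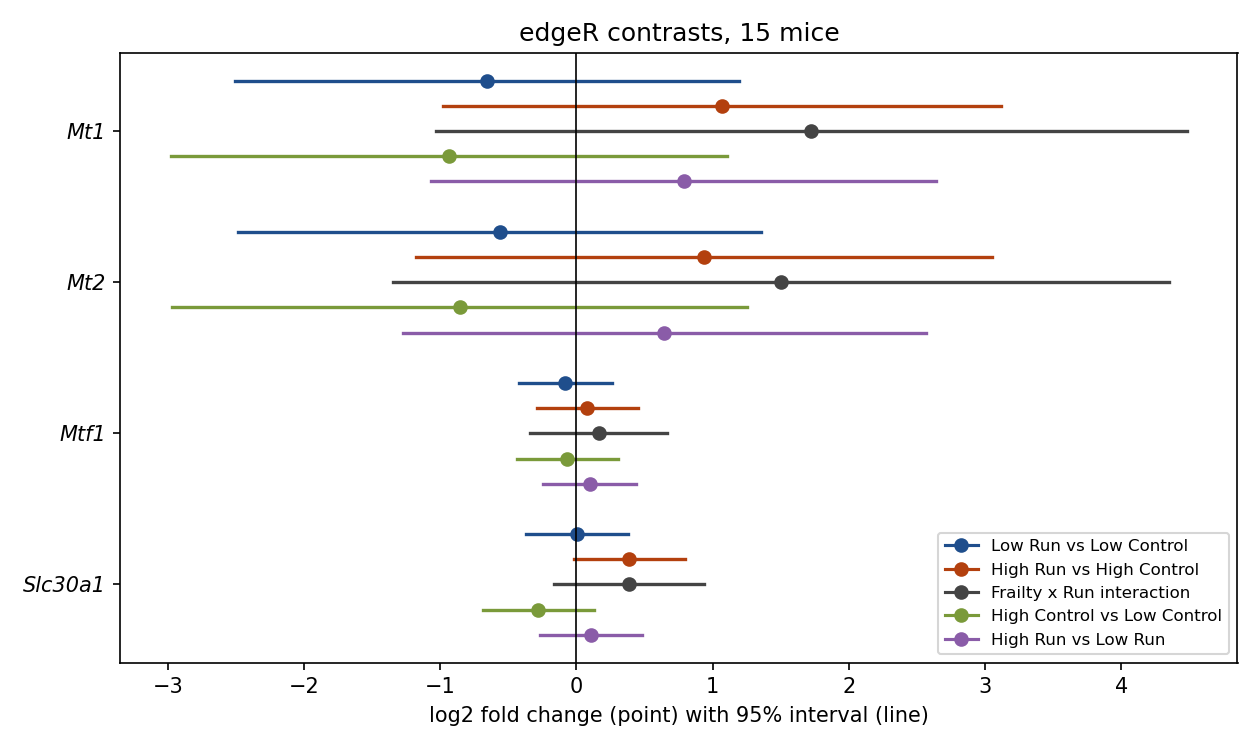
Log2 fold changes (points) with 95% intervals (lines) of the 4 members in 5 contrasts of the edgeR fit over 15 mice. All intervals include 0, and those of Mt1 and Mt2 (for Mt1 in Low mice, -2.51 to 1.20) are several times wider than those of Mtf1 and Slc30a1.

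Mt1 and Mt2 varied together from mouse to mouse. Across the 15 mice, log2 CPM of Mt1 and Mt2 gave a Pearson r of 0.991 and a Spearman rho of 0.975, and r was 0.979 over 13 mice without D9 and D62. After removal of group means r was 0.992. Mtf1 ran the other way, with r -0.651 and rho -0.721 against Mt1, and r -0.657 without D9 and D62. Slc30a1 kept no fixed relation to Mt1, with r 0.189 and rho -0.075 over all mice and r -0.422 without those 2 mice. The points share libraries, depth and scaling, so these values describe the 15 libraries and carry no test.

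**Figure D3:**
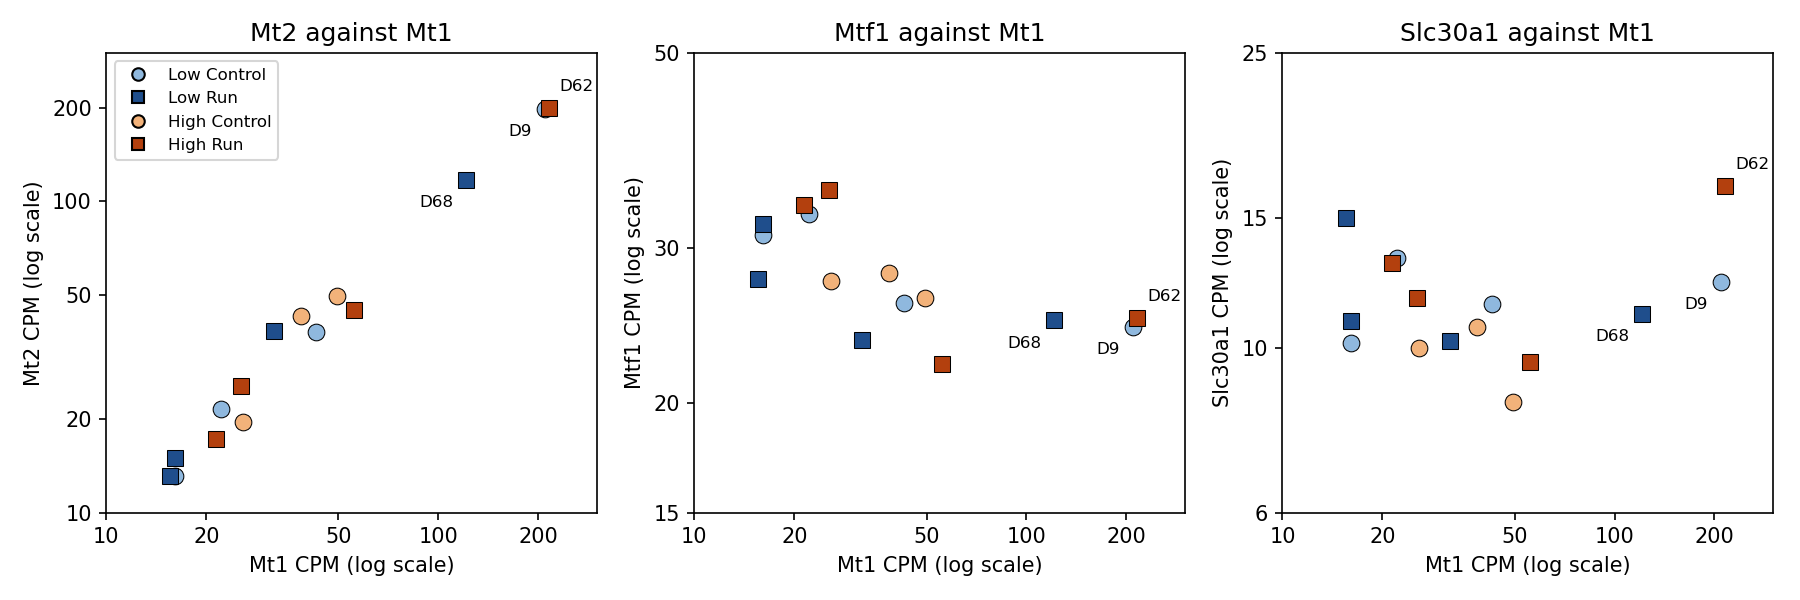
CPM of Mt2, Mtf1 and Slc30a1 against CPM of Mt1 on log axes, 1 point per mouse, coloured by group. Mt2 follows Mt1 across the whole range (r 0.991), Mtf1 is lower where Mt1 is higher (r -0.651) and Slc30a1 shows no fixed relation (r 0.189).

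The genes with the pattern most like each member were taken by the highest Pearson r of log2 CPM over the 15 mice. For Mt1 these were Mt2, then Ppp2r2d, which encodes a regulatory subunit of protein phosphatase 2A (r 0.956), Fam3a (r 0.954), Stc2, which encodes a secreted stanniocalcin (r 0.953), and Eci2, an enzyme of unsaturated fatty acid oxidation (r 0.950). For Mt2 they were Mt1, Stc2 (r 0.953), the nucleic acid demethylase gene Alkbh3 (r 0.949), Bcl2l1, which encodes the anti-apoptotic Bcl-xL (r 0.940), and Fam3a (r 0.939). Their amplitudes were smaller. Stc2 ran from 5.12 to 33.2 CPM and Bcl2l1 from 15.1 to 65.5 CPM, and Alkbh3 only from 27.7 to 42.0 CPM. Without D9 and D62 the r values of the genes named here with Mt1 or Mt2 lay between 0.881 for Stc2 with Mt1 and 0.979.

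Mtf1 was most like Htt, the huntingtin gene (r 0.940), Erlin2 (r 0.918), Dcaf7 (r 0.914), Clasp1 (r 0.911) and Heatr5b (r 0.909). Slc30a1 was most like Vps53 (r 0.879), D10Wsu102e (r 0.845), Dph1 (r 0.837), the autophagy gene Atg7 (r 0.825) and Abr (r 0.816).

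Among 75 genes of neighbouring pathways, 67 were tested. The counts below take an unadjusted p under 0.05 in the edgeR fit and are a description, since 0 of the 67 passed an FDR of 0.1 in any comparison. In Low Run against Low Control 2 were higher and 13 lower (22.4%, beside 13.4% of all genes), and in High Run against High Control 5 were higher and 2 lower (10.4%, beside 5.18%). For the interaction 15 were positive and 1 negative (23.9%, beside 7.93%). Without D9 and D62 only 1 of the 67, Osmr, was left for the interaction, beside 740 of 16724 genes. The Low comparison had 5 listed genes in place of 15 without those mice, beside 1226 of 16724 genes. The Low share was then about that of all genes, and the interaction share was below it. Leaving out 1 mouse at a time gave from 4 (without D9) to 25 (without D98) genes in the Low comparison, and from 3 (without D62) to 23 (without D98) for the interaction. In the same fits all genes gave 846 of 16832 and 2898 of 16820 in the Low comparison. For the interaction they gave 866 of 16789 and 1929 of 16820.

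The glucocorticoid-responsive list supplied much of this. It holds 19 genes that glucocorticoids are known to induce or that act with them in muscle, and all 19 were tested. In Low Run against Low Control 8 of 19 were lower and 0 higher (7.52% of all genes were lower), with a list median log2 fold change of -0.88 beside 0.02 for all genes. In High Run against High Control 0 passed in either direction and the median was 0.38, which turned to -0.40 without D62. The interaction was positive for 7 of 19 (5.24% of all genes), with a median of 1.33 beside 0.03. With voom's sample quality weights the count of lower genes was 2 in Low mice, with a median of -0.40, and 2 in High mice, with a median of -0.30, and the interaction count was 0, with a median of -0.02. Of all 16920 genes, voom gave a p under 0.05 in either direction to 1385 (Low), 2300 (High) and 1760 (interaction). In the edgeR fit without D9 and D62 the list counts became 1 lower in Low Run and 0 for the interaction, whose median became 0.03. In either direction, 1226 (Low) and 740 (interaction) of 16724 genes then passed. Without D9 alone the Low count was 1 and the interaction count 1, and without D62 alone they were 12 and 1. All genes gave 846 and 785 of 16832 without D9, and 2736 and 866 of 16789 without D62, in either direction. The Low count was also 5 without D8, 4 without D57, 2 without D61 and 1 without D66. All genes gave 2055, 1253, 2190 and 2205 of 16767 to 16875 in these fits. The interaction count was also 4 without D61 or D66, 3 without D25 and 11 without D98. All genes gave 1375 (without D61), 1254 (D66), 922 (D25) and 1929 (D98) of 16767 to 17328.

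Fkbp5, which encodes a chaperone of the glucocorticoid receptor and is a standard readout of it, stood at 224 CPM in D8, 483 in D9, 62.6 in D11 and 75.8 in D98 of Low Control. Low Run mice had 39.3 in D57, 24.1 in D61, 38.0 in D66 and 134 in D68. High Control mice had 97.97 (D23), 61.03 (D25) and 75.1 (D67), and High Run mice had 80.1 (D49), 59.3 (D52), 61.002 (D53) and 410 (D62). The highest mouse of Low Control, Low Run and High Run was thus the same mouse for Fkbp5 as for Mt1, and Low Run overlapped with Low Control through D68 alone. Its log2 fold change was -1.85 in Low mice (SE 0.74, unadjusted edgeR p 0.0246, FDR 0.358) and its interaction 2.82 (SE 1.09, p 0.0207, FDR 0.600). They were, without D9 and D62, -1.05 (p 0.0575 in the same edgeR test) and 0.82 (p 0.291).

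Zbtb16, a zinc finger repressor gene and glucocorticoid target, had the smallest p of the list in Low mice, with a log2 fold change of -1.92 (SE 0.59, unadjusted edgeR p 0.00483, FDR 0.358) and -1.35 without D9 and D62 (p 0.0104 in the same edgeR test). Zbtb16 did not share the high value of D68, which at 36.8 CPM was among the lowest mice, and its r with Mt1 was 0.388. Trim63, the muscle ubiquitin ligase MuRF1, reached 6083 CPM in D9 and 3834 in D62 beside 212 to 1413 in the other 13 mice. Its interaction of 3.33 (SE 1.34, unadjusted edgeR p 0.0245) became 0.05 without those 2 mice. Foxo3, a transcription factor gene of muscle atrophy, had an interaction of 1.33 (SE 0.53, p 0.0238 by edgeR), which became 0.36.

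The likeness of the lists to Mt1 was measured in the same way. An r over 0.5 with Mt1 was reached by 16 of the 19 glucocorticoid-responsive genes (84.2%), beside 18.9% of all tested genes, and the list median was 0.795. Without D9 and D62 it was reached by 10 of 19 (52.6%, beside 17.2%), with a median of 0.518. After removal of group means it was again 16 of 19. Genes named here and below for their r with Mt1 were chosen after their values were seen. The closest to Mt1 in the list were Cebpd, which encodes the stress-induced factor C/EBP delta (r 0.927, and 0.858 without the 2 mice), and Ddit4, which encodes REDD1, an inhibitor of mTORC1 (r 0.881 and 0.820). Cebpd read 18.4 CPM in D98 and 490 in D62, the lowest and highest of the 15 mice, and 416 in D9 and 177 in D68. Ddit4 read 16.9 CPM in D98, 688 in D62, 447 in D9 and 277 in D68, but it was also high in all 3 High Control mice, at 172 to 224 CPM. Sgk1, a kinase gene (r 0.035), and Nr3c1, the glucocorticoid receptor gene itself (r 0.071), did not follow Mt1.

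**Figure D4:**
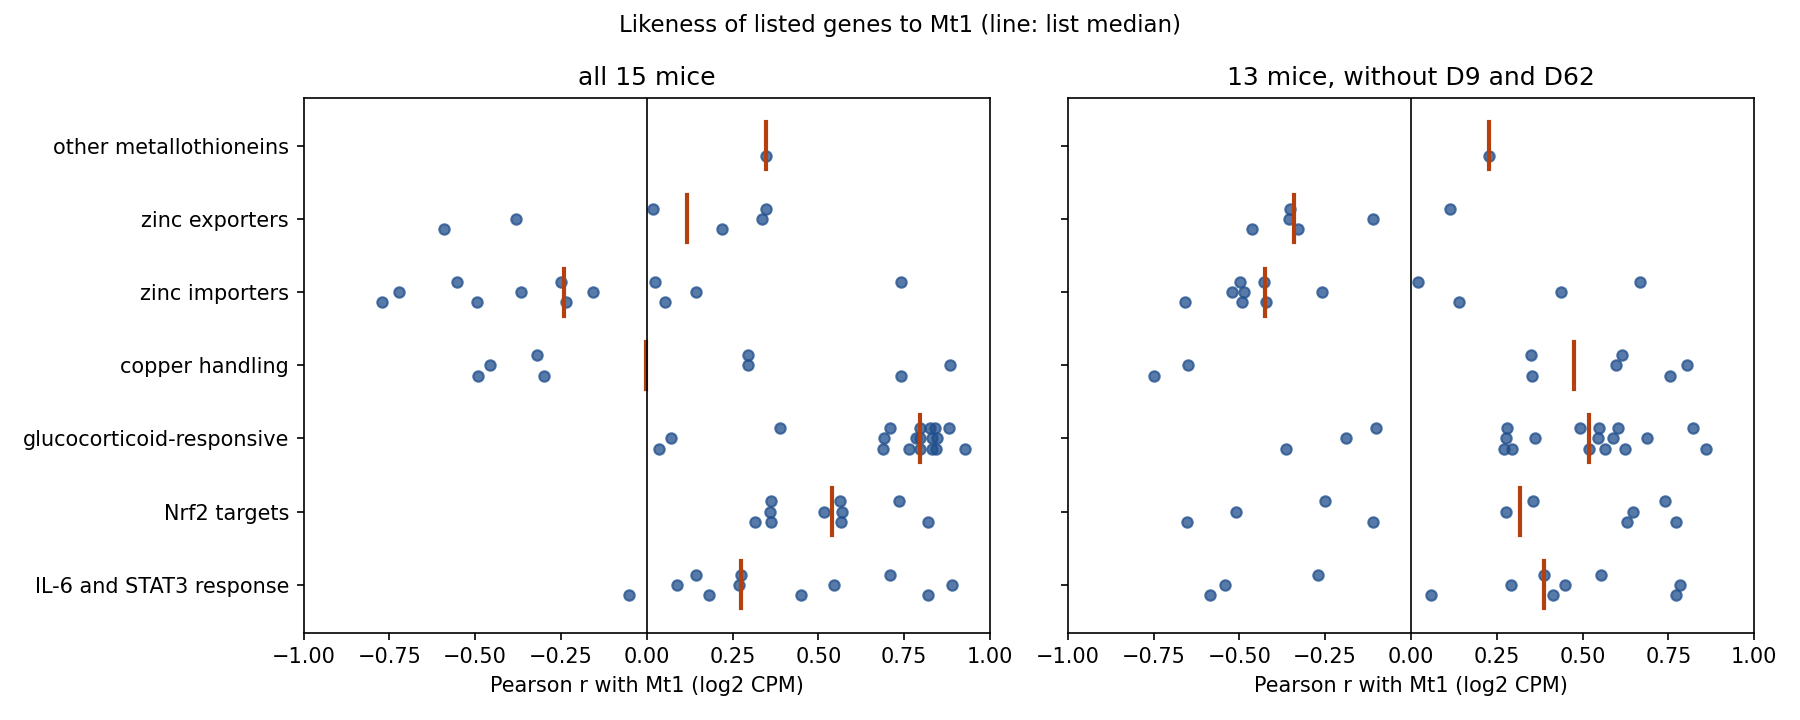
Pearson r of log2 CPM with Mt1 for each tested gene of the 7 lists (points) and the list median (line), over all 15 mice on the left and without D9 and D62 on the right. The glucocorticoid-responsive genes have the highest median in both panels, 0.795 and 0.518.

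Of the Nrf2 targets, genes of the antioxidant response, 6 of 10 had an r over 0.5 with Mt1 (60%, beside 18.9% of all tested genes). It was 4 of 10 without D9 and D62 (40%, beside 17.2%). An r under -0.5 was reached by 0 of 10 (beside 17.6%), and by 2 of 10 without D9 and D62 (20%, beside 16.8%). Prdx1, a peroxiredoxin gene, had r 0.819 (0.741 without them), while Osgin1 turned from 0.517 to -0.510. Txnrd1, the cytosolic thioredoxin reductase gene, and Osgin1 were lower in Low Run than in Low Control, by log2 changes of -0.67 (SE 0.24, unadjusted edgeR p 0.0143) and -1.41 (SE 0.48, p 0.00981). These became, without D9 and D62, -0.32 (p 0.0871 by edgeR) and -0.44 (p 0.0322). Hmox1, the heme oxygenase 1 gene, was higher in High Run than in High Control by 0.94 (SE 0.36, unadjusted edgeR p 0.0181, FDR 0.956), and by 0.59 without D62 and D9. Between the controls 4 of the 10 were lower in High mice (4.06% of all genes were), including Srxn1, the sulfiredoxin gene, by -0.86 (SE 0.32, p 0.0167 by edgeR). That value became -0.30 without D9 and D62 (p 0.0675 by edgeR). The rest of the 4 were Osgin1, Hmox1 and Txnrd1. Without D9 and D62 only Osgin1 of the 4 kept an edgeR p under 0.05 (-0.54, p 0.0165). Hmox1 was then -0.44 (p 0.0858 by edgeR) and Txnrd1 -0.29 (p 0.148).

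Of the 11 tested genes of the IL-6 and STAT3 list, 4 had an r over 0.5 with Mt1 (36.4%, beside 18.9% of all tested genes) and 0 an r under -0.5. Without D9 and D62, 3 were over 0.5 (27.3%, beside 17.2%) and 2 under -0.5 (18.2%, beside 16.8%), near the shares of all genes. Cebpb, the C/EBP beta gene, had r 0.890 (0.771 without the 2 mice), Il6ra, the IL-6 receptor gene, 0.820 (0.414) and the iron-scavenger gene Lcn2 0.709 (0.783). Stat3 itself had r -0.051. Il6ra had an interaction of 3.25 (SE 1.20, unadjusted edgeR p 0.0156) that became 0.27 without D9 and D62. Osmr, the oncostatin M receptor gene, was lower in High Control, at 8.84 to 11.4 CPM, than in Low Control, at 12.54 to 25.7 CPM. The groups did not overlap (5.27% of all genes were lower without overlap), and the log2 difference was -0.71 (SE 0.21, unadjusted edgeR p 0.00407, FDR 0.704), and -0.45 without D9 and D62. In High Run against High Control Osmr was higher by 0.46 (SE 0.21, unadjusted edgeR p 0.0438, FDR 0.956), and by 0.39 without D9 and D62 (edgeR p 0.0151, FDR 0.634). The Osmr interaction was 0.83 (SE 0.28, unadjusted edgeR p 0.0104, FDR 0.600), and 0.50 without D9 and D62 (edgeR p 0.0208, FDR 0.984). Junb, an AP-1 gene, was lower in High Run than in Low Run by -1.35 (SE 0.48, unadjusted edgeR p 0.0127, FDR 0.999). Against High Control it was lower in High Run by -1.24 (SE 0.51, unadjusted edgeR p 0.0266, FDR 0.956), beside 0.07 (SE 0.47) in Low mice. Without D9 and D62 the first 2 values were -1.55 and -1.45. Saa3, an acute-phase gene, was read from only 1 to 16 counts per mouse. Its log2 change with running was 2.45 in Low mice (SE 0.69, unadjusted edgeR p 0.00264) and 1.91 in High mice (SE 0.75, p 0.0217 by edgeR). Its interaction was -0.54 (SE 1.08), and all these values rest on those counts.

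Of the other metallothionein genes Mt4 had 0 to 3 counts per mouse and was not tested. Mt3, known mainly from brain, was detected at 19 to 147 counts per mouse. In High Run it read 3.33 CPM in D49, 4.35 in D52, 4.87 in D53 and 4.63 in D62, and in High Control 0.734 in D23, 1.03 in D25 and 1.87 in D67. All 4 runners were above all 3 controls (3.47% of all genes were higher without overlap). The log2 fold change was 1.84 (SE 0.42) with an unadjusted p of 0.000537 and an FDR of 0.956 by edgeR, so Mt3 was not called there. DESeq2 gave an FDR of 0.0321 and voom 0.0655 for Mt3, both under 0.1, and edgeR without a count filter gave 0.0836. Without D9 and D62 the difference was 1.80, and leaving out 1 mouse at a time gave unadjusted edgeR p-values from 0.000107 to 0.00471 and no FDR under 0.599.

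In Low mice Mt3 read 2.13 (D8), 2.44 (D9), 1.28 (D11) and 1.62 (D98) CPM in controls and 4.54 (D57), 1.12 (D61), 2.13 (D66) and 3.36 (D68) in runners, with overlap. That log2 fold change was 0.57 (SE 0.37, edgeR FDR 0.468). The interaction of Mt3 was 1.27 (SE 0.56, unadjusted edgeR p 0.0372, FDR 0.600), and 1.08 without D9 and D62 (edgeR p 0.0919). Its r with Mt1 over the 15 mice was 0.346. The Schwann cell marker sum, for a cell type of nerve, spanned 90.1 to 282 CPM in High Run and 126 to 141 CPM in High Control, with 4 of 4 markers counted in every mouse, and its part in the Mt3 difference was not tested.

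Of the 6 other zinc exporter genes tested, 1 was lower in Low Run than in Low Control (7.52% of all genes were lower), namely Slc30a5 (-0.38, SE 0.15, unadjusted edgeR p 0.0222), a transporter into the secretory pathway, and its interaction was 0.57 (SE 0.22, p 0.0217 by edgeR). Slc30a6, the partner of Slc30a5 in a heterodimer, had an interaction of the other sign (-0.53, SE 0.22, unadjusted edgeR p 0.0332). Slc30a9 was lower in High Run than in High Control by -0.33 (SE 0.15, p 0.0405 by edgeR). None of these exporter values kept an edgeR p under 0.05 without D9 and D62. Slc30a5 was then -0.24 in Low mice (p 0.0832 by edgeR) with an interaction of 0.40 (p 0.0502), the Slc30a6 interaction was -0.46 (p 0.0658) and the Slc30a9 value -0.23 (p 0.0858). Of the 12 zinc importer genes tested, 1 was lower in Low Run, beside the same 7.52% of all genes, namely Slc39a14. Slc39a14, a zinc and iron importer gene of inflammation, read 100 CPM in D9 and 55.1 in D62 beside 10.0 to 18.1 in the other 13 mice. Its r with Mt1 was 0.741, and 0.02 without them. Its interaction was 2.16 (SE 0.90, unadjusted edgeR p 0.0291), and 0.11 without them. Slc39a3 (r -0.723) and Slc39a11 (r -0.772) ran against Mt1, and both kept a negative r without the 2 mice (-0.657 and -0.523).

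Of the 8 copper-handling genes tested, only Atox1, a copper chaperone gene, passed an unadjusted p of 0.05 in Low Run against Low Control, with a log2 change of 0.31 (SE 0.13, p 0.0373 by edgeR), beside 13.4% of all genes. It was 0.21 without D9 and D62 (p 0.104 by edgeR). Sod1, the copper and zinc superoxide dismutase gene, followed Mt1 with r 0.884, and 0.805 without D9 and D62. It read 181 CPM in D9, 140 in D68, 138 in D53 and 135 in D62, beside 87.9 to 108 CPM in the other 11 mice. Its copper chaperone gene Ccs had r 0.740 and 0.596.

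**Figure D5:**
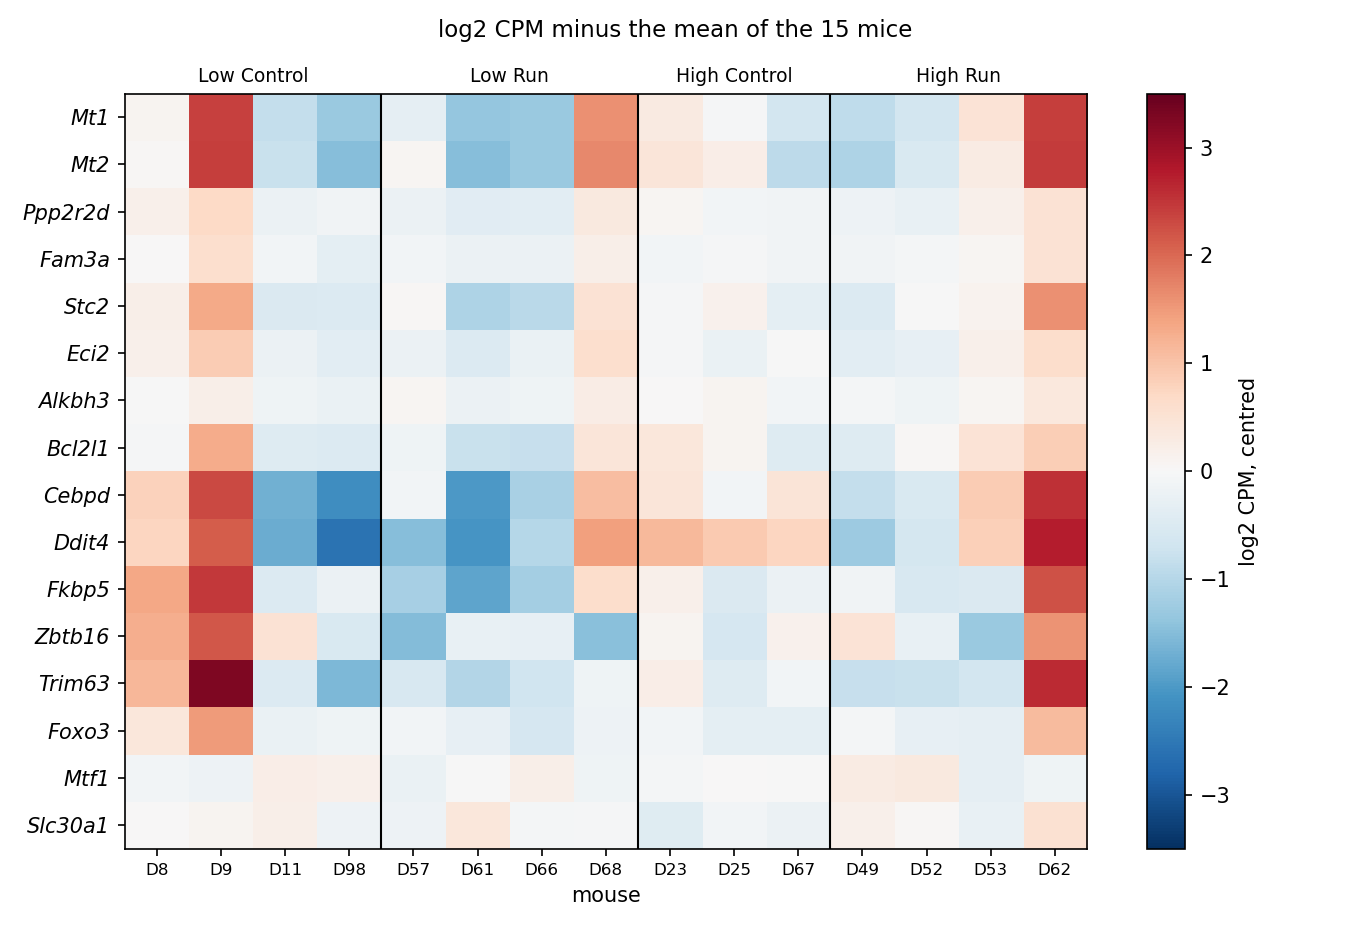
Log2 CPM minus the mean over the 15 mice for Mt1, Mt2, the genes most like them, 6 glucocorticoid-responsive genes, Mtf1 and Slc30a1, with mice in columns by group. D9 and D62 are high for Mt1, Mt2 and the glucocorticoid-responsive genes. D68 is high for Mt1, Mt2 and Ddit4 but not for Zbtb16, Trim63 or Foxo3. No Low Run mouse exceeds 572 CPM for Trim63 or 45.1 CPM for Foxo3, beside medians over all mice of 452 and 42.8. The Mtf1 and Slc30a1 rows vary little.

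Cell type markers moved with the high mice in part. The neutrophil marker sum reached 396 CPM in D68, the Low Run mouse with high Mt1, beside 1.62 to 53.7 CPM in the other 14 mice, and it was 15.2 in D9 and 3.84 in D62. Of the 5 neutrophil markers 3 were counted in every mouse, and Ly6g and Mpo were at 0 in some mouse. The r of the neutrophil sum with Mt1 was 0.248, and 0.670 without D9 and D62. By group the sum spanned 7.47 to 53.7 CPM in Low Control, 8.61 to 396 in Low Run, 1.62 to 35.1 in High Control and 2.09 to 51.8 in High Run. Over all mice 0 of the 4 tested neutrophil markers had an r over 0.5 with Mt1 (beside 18.9% of all tested genes). Without D9 and D62 this was reached by 4 of 4 (100%, beside 17.2%). D9 and D62 had higher Mt1 than D68 at far lower neutrophil sums. The part of neutrophils in the Mt1 level was not tested in any mouse.

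The macrophage marker sum (5 of 5 markers counted in every mouse) spanned 45.1 to 87.7 CPM in Low Control, 62.2 to 90.3 in Low Run, 35.4 to 62.5 in High Control and 48.8 to 119 in High Run. Its r with Mt1 was -0.594, and -0.429 without D9 and D62. The fibre marker sum had r -0.323 (0.223 without them), the adipocyte sum 0.031 (0.137) and the erythroid sum 0.202 (0.157). The satellite cell sum of 2 markers, 2.72 to 5.20 CPM, had r -0.621 (-0.523), the Schwann sum 0.386 (0.294), the endothelial sum -0.067 (-0.448), the fibroblast sum -0.276 (0.130) and the smooth muscle and pericyte sum -0.245 (0.245). Log2 total counts had r 0.244 with Mt1 and -0.079 without D9 and D62. The first principal component had r -0.826 and -0.511, and the second, with 15.3% of the variance, 0.494 and 0.822. The labels give no batch, and the part of these measures in the metallothionein levels was not tested.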

How the data were processed

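Poly(A) RNA of the gastrocnemius was sequenced from 15 aged female mice in 4 groups taken from the sample labels. Per the labels and the study's methods, the authors used STAR 2.7.9a for alignment to mm10, and featureCounts to assign properly paired, uniquely placed reads to Ensembl genes. The deposited counts are raw, and mitochondrial genes are not among them. The version of Subread differed between the sources (2.0.3 in the submitters' processing notes). The authors also deposited variance-stabilized values, which were not used here. Symbols mapped each member to 1 Ensembl gene.

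The analysis used edgeR 4.0.16 under R 4.3.3. Genes were kept by filterByExpr (16920 of 55450), scaled by TMM and compared with the quasi-likelihood F-test in a fit of all 15 mice with a mean for each group, and p-values were adjusted over all tested genes and called at an FDR of 0.1. CPM used TMM library sizes, and log2 CPM a prior count of 2. Correlations are Pearson's r of log2 CPM. Intervals are 95% intervals of the edgeR coefficient. The code was tested on simulated counts. Totals of 19395125 to 30699216 counts per mouse gave Poisson errors of at most 6.92% for any member, for counting error only. Mice of a group differed beyond sampling noise in all 21 pairs (chi-square per degree of freedom 15.7 to 191), so none was merged with another. Each label names 1 mouse, and p-values measure the spread between mice.

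Alternatives were DESeq2 1.42.0, limma 3.58.1 (voom with sample quality weights), RLE and upper-quartile scaling, 2 other count filters, only the groups compared, length and GC offsets, and leaving out each mouse, or D9 and D62 together. The members' rule uses roles and symbols only, but the members and lists were chosen with earlier results of these data known. The text names the 4 members, the 5 genes most like each by r and, of each pathway list, up to 4 genes with the smallest p; others are marked. Promoter windows came from RefSeq on GRCm38.p6 and gene coordinates from GENCODE on GRCm38.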

Additional observations from a re-analysis of the deposited data

Results flagged for a closer look

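In groups of 4 mice, a mouse was marked when its gap to the nearest other exceeded the critical value of Dixon's test on CPM. Mt1 in Low Control mouse D9 (209.05 CPM), Mt1 in Low Run mouse D68 (120.85 CPM), Mt2 in Low Control mouse D9 (198.32 CPM) and Mt2 in High Run mouse D62 (199.52 CPM) each lay far from the other 3 mice of their group. These were 4 of 12 groups tested, where chance marks about 1 in 20, and Mt1 and Mt2 are not independent of each other. On log2 CPM the same test marked 0 of 12.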

How the results depend on the processing

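No paired analysis was possible because the labels give each mouse its own identity and no number that links mice across groups. No member reached an FDR of 0.1 under any alternative, and the lowest was 0.365 (Slc30a1 interaction without D53). With sample quality weights (voom) the sign turned for Mt1 and Mt2 in High mice (-0.25 and -0.27), the interaction (-0.10 and -0.20), the controls (0.44 and 0.50) and the averaged run effect (-0.20 and -0.17). The listed genes with a voom p under 0.05 numbered 2, 12 and 7 in the Low, High and interaction comparisons. Of all 16920 genes, 1385, 2300 and 1760 did so. Without D9 and D62 the Mt1 and Mt2 values were 0.76 and 0.91 (Low), -0.16 and -0.37 (High), -0.92 and -1.28 (interaction), 0.48 and 0.62 (controls) and -0.43 and -0.66 (runners), Slc30a1 between runners was -0.053, averaged Mtf1 was -0.0098, and listed genes numbered 5, 1, 3, 2 and 12 (Low, interaction, controls, runners, averaged). In the same order, 1226, 740, 636, 457 and 1637 of 16724 genes had a p under 0.05 by edgeR. Near 0, Slc30a1 in Low mice turned to -0.0059 (DESeq2) and -0.0058 (RLE), and averaged Mtf1 to -0.013 (DESeq2), -0.011 (RLE) and -0.0062 (no filter). Length and GC offsets gave Mtf1 0.045, -0.0082, -0.053, 0.052 and -0.0012 (Low, High, interaction, controls, runners) and averaged Mt2 -0.0026. With no count filter, listed genes numbered 23 (Low), 18 (controls), 15 (runners) and 12 (averaged), beside 3337, 1925, 1384 and 2642 of 35419 genes. With only the groups compared they numbered 4 (controls), beside 955 of 15851 genes. The causes were not tested.

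Leaving out 1 mouse at a time, Mt1 ranged from -1.79 to 0.76 (Low), -0.16 to 1.38 (High), -1.27 to 0.48 (controls), -0.44 to 1.91 (runners) and -0.41 to 0.91 (averaged), and Mt2 from -1.63 to 0.91, -0.37 to 1.26, -1.20 to 0.62, -0.66 to 1.70 and -0.47 to 0.92. Mtf1 ranged from -0.028 to 0.19 (High), -0.14 to 0.0014 (controls), -0.010 to 0.21 (runners) and -0.058 to 0.054 (averaged), and Slc30a1 from -0.14 to 0.066 (Low) and -0.052 to 0.24 (runners). Listed genes ranged from 4 to 25 (Low), 3 to 9 (High), 3 to 23 (interaction), 1 to 17 (controls), 2 to 7 (runners) and 3 to 18 (averaged). Among all 16767 to 17399 genes tested, the counts ranged from 846 to 2898 (Low), 586 to 1139 (High) and 785 to 2357 (interaction). They ranged from 443 to 1805 (controls), 305 to 979 (runners) and 1062 to 1921 (averaged). Of the member values, 177 of the other alternatives kept their direction and 31 did not.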
